A study of Mus musculus with 20 samples.

Results

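The cytosolic ribosomal protein genes are the genes for the proteins of the large and the small subunit of the ribosome that works in the cytoplasm. They were taken from the deposited expression table as the protein-coding rows whose mouse symbol is Rpl or Rps followed by a number and at most 1 of the letters a, x or l, together with Rplp0, Rplp1, Rplp2 and Rpsa. This gave 81 of the 25869 genes of the table, 50 of the large and 31 of the small subunit. The symbols Rpl6l and Rps4l fit the pattern but are not annotated as protein coding and were left out, as were pseudogenes, the Rps6k kinases and Rps19bp. The study built a mouse in which a dead Cas9 fused to transcriptional activators (dCas9a-SAM) is expressed from Rosa26 under the CAG promoter, and used it to raise Bcl-2 from its own promoter in fibroblasts and in Eµ-Myc B cells. RNA was sequenced from 20 mouse libraries.

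Of these, 10 were from mouse embryonic fibroblast (MEF) lines, and no drug treatment is named for any group. They were 2 wildtype (WT) libraries, 2 with the dCas9-SAM genotype and no sgRNA, 2 with dCas9-SAM and a non-targeting sgRNA (sgNT), and 4 with dCas9-SAM and sgRNAs for Bcl-2 (sgBcl-2). The dCas9-SAM groups carried 1 copy of the cassette (KI/+) according to the methods of the study, and the labels number 2 lines, so that the 4 sgBcl-2 libraries were 2 from each line. A further 6 libraries came from lymphoma cell lines labelled EuMYC/dCas9-SAM/sgBCL-2, 4 IgM positive and 2 IgM negative, each line named for 1 mouse. In the Eµ-Myc transgene the immunoglobulin heavy chain enhancer drives Myc in B lymphoid cells, and the lymphomas arose in irradiated mice that had received transduced fetal liver cells. Another 2 libraries were primary IgM positive tumours of that genotype, which also hold the host's other cells. The last 2 were preB cell acute lymphoblastic leukaemias (preB-ALL) cultured with IL7 and labelled BCR-ABL1 (p190T/+). They carried neither Eµ-Myc nor sgBcl-2 in their labels. Their titles, P190CreERLSLErg and P190RagCreErg, name different further alleles, so the 2 preB-ALL samples may not be replicates of a single genotype. By the study's methods, the MEF lines and the fetal liver cells came from embryos, and the irradiated recipients were young females.

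A ribosomal subunit needs 1 copy of nearly every ribosomal protein (RP), and cells keep the mRNAs of these proteins at related levels. Most RP mRNAs begin with a C followed by a run of pyrimidines, the 5′ terminal oligopyrimidine (TOP) tract, through which mTOR signalling controls their translation, and MYC is known to raise transcription of RP genes and of ribosome assembly factors. The genes are also the source of very many processed pseudogenes, intronless copies of their mRNAs that were inserted elsewhere in the genome, so that short reads often match a gene and its copies equally well. Some members have a second gene for a closely related protein. Rpl39l and Rpl10l are known from male germ cells and Rpl3l from heart and skeletal muscle, while Rps27l is a known p53 target.

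Promoter sequence was available in RefSeq (GRCm38.p6, 250 bases before to 50 after the start site) for 61 of the 81 members. The letters CCGGAAG, the core that ETS factors bind, occurred on either strand in 24 of the 61 windows (39.3%), compared with 9.12% of the 26994 promoters in the table and 17.2% of the 11102 promoters of other genes that were tested between lymphoma lines and MEFs. A run of 8 or more C or T that touched the 10 bases on either side of the start was found in 44.3% of the members' windows and in 13.8% of all windows. A C within 3 bases of the start that was followed by 4 C or T was found in 37.7% and 11.6%. Members' windows were those nearest the start of their GENCODE coding transcript, while the background took the first listed promoter of each gene. The shares of members and background thus rest on starts chosen differently. The E box CACGTG, the letters MYC binds, was found in 8.20% of the members' windows, 7.24% of all windows and 10.1% of the other tested ones, between those of both backgrounds. Counted in the same way on either strand, TATAAA was found in 9.84% of the members' windows, 14.2% of all windows and 7.30% of the other tested ones. For CCAAT these shares were 31.2%, 37.9% and 38.8%, and for AAGATGGC 6.56%, 2.87% and 4.45%. CCGGAAG and AAGATGGC can share letters where they adjoin. Windows from 6 members are shown to make the ETS core visible, which is in capitals, read 5′ to 3′ on the strand of the gene, and they end no later than 20 bases after the start.
Rps2 (chr17:24719911-24719967, plus strand): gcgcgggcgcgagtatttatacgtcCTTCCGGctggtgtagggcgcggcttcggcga
Rps26 (chr10:128626689-128626745, minus strand): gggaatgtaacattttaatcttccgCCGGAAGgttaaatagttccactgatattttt
Rpl41 (chr10:128549193-128549249, minus strand): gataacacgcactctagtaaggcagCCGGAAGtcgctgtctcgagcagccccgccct
Rps21 (chr2:180257328-180257384, plus strand): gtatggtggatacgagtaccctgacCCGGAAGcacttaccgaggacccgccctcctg
Rpl6 (chr5:121204488-121204520, plus strand): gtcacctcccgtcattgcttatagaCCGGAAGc
Rps18 (chr17:33955709-33955765, minus strand): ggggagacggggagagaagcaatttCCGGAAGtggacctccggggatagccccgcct
In Rps2 the capitals are the reverse complement of the motif, and in Rpl6 the motif lies 12 bases after the start. A match of letters is not a binding site, and RefSeq's start sites may lie some bases from those used in these cells.

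Reads counted on genes were between 12474885 and 26678417 per library with a median of 23229458, and the preB-ALL libraries were the shallowest. Bcl2 was at 46.8 to 71.8 CPM (read counts scaled to a common library total) in the sgBcl-2 MEFs and at 13.4 and 13.7 CPM with sgNT, in keeping with the labels. The summed B cell markers (8 genes) were at 1292 to 2339 CPM in the lymphoma lines, and reached 4116 and 7341 CPM with preB-ALL, against at most 25.3 CPM in MEFs. The summed fibroblast markers (12 genes) were at 8372 to 24752 CPM in MEFs and at most 87.9 CPM in the lymphoma lines, but at 2716 and 6381 CPM in the preB-ALL libraries, where Dcn was at 0. One WT library, WT 2, stood apart from the other 9 MEF libraries, with the lowest fibroblast sum (8372 CPM), the highest sum of the 6 myeloid markers (222 CPM against at most 9.0 CPM in the other MEFs) and 4330 of 13659 genes at 2-fold or more from WT 1. The preB-ALL libraries stood apart as well. They came from another sequencing run and RNA kit, their column names carry the aligner name subjunc while the others name none, and the 15 mitochondrial genes of the table were at 0 in both, compared with 2.24% to 9.04% of reads in the other 18 libraries.

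RP genes together took between 1.82% and 2.11% of the reads in the 8 dCas9-SAM MEF libraries. WT 1 was at 2.00% within that range, and WT 2 at 2.98% above it. The share in the 4 IgM positive lymphoma lines was 4.09%, 3.31%, 3.81% and 3.93%, and in the 2 IgM negative lines it was 4.33% and 4.001%. Every lymphoma line was above every MEF library. The 2 primary tumours were highest, with 4.48% and 5.05%, and the preB-ALL libraries had 3.32% and 4.23%. The share of the mitochondrial genes differed between these groups as well, at 2.24% to 2.90% in MEFs, 5.30% to 7.18% in the lymphoma lines and 7.80% and 9.04% in the tumours. The 95% Wilson intervals of these shares, which cover counting error only, were narrow at this depth, for example 2.97% to 2.98% for WT 2. As the libraries are of bulk RNA, fewer cells of a type and less RNA per cell cannot be told apart in any of these values.

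**Figure D1:**
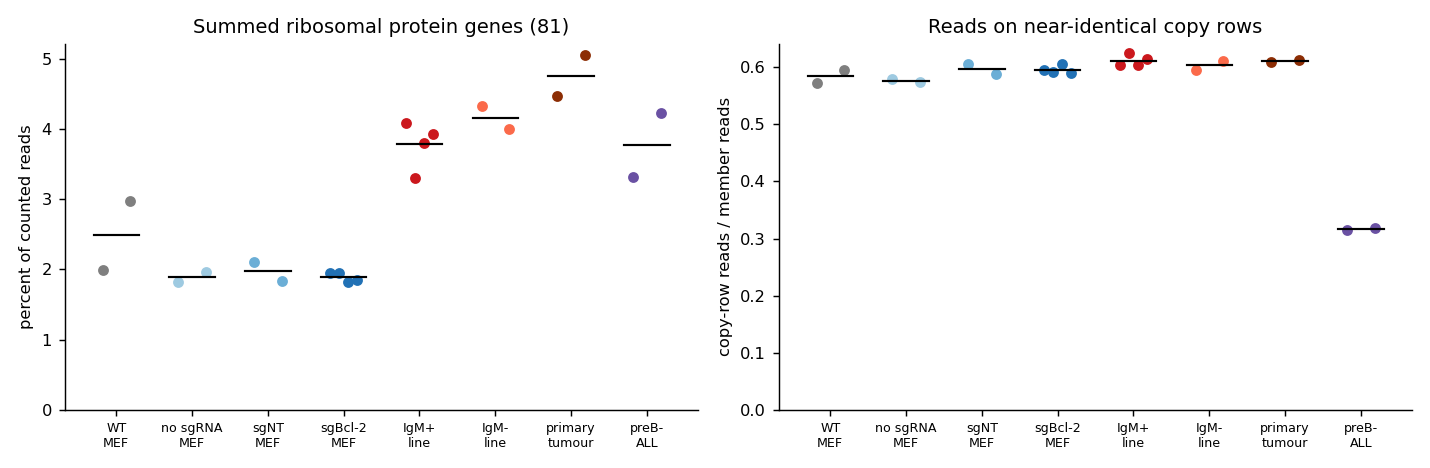
Left, reads on the 81 RP genes as a percent of all counted reads, one point per library and a line at the group mean. Right, reads on 131 rows that are near-identical copies of RP genes, divided by the reads on the RP genes themselves. The lymphoma lines and tumours sit above the MEFs on the left, while on the right only the preB-ALL libraries, at 0.315 and 0.318, leave the band from 0.573 to 0.625.

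Levels differed widely between members and kept nearly the same order in MEFs, lymphoma lines and tumours, less so in preB-ALL. Per kilobase of exon, the mean over the 9 MEF libraries other than WT 2 was highest for Rplp1 (2954 CPM per kb), Rplp0 (1443) and Rpl4 (859), and in the lymphoma lines for Rplp1 (3895), Rplp0 (2712), Rpl8 (2301) and Rpl4 (2265). Near the other end were Rps13 (3.31 CPM per kb in MEFs and 9.97 in lymphoma lines), a protein at the interface of the subunits, and Rpl39 (1.07 and 2.55), which lines the exit tunnel. Across the 81 members, the log2 mean levels in MEFs and lymphoma lines had a Spearman correlation of 0.986, and those in lymphoma lines and tumours one of 0.994. The correlation with preB-ALL was lower, at 0.877 for MEFs and 0.882 for lymphoma lines. These are correlations across genes, which are not independent and share length, base composition and copies.

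BLAST found 985 near-identical copies (90% identity or more over at least 80% of the coding sequence) of 76 of the 81 members in GENCODE, with a median of 9 per member and 77 for Rpl21. The share of coding 75-base windows that occur in no other GENCODE gene was 0% for 23 members, under 10% for 35, and 50% or more for 20, with a median of 16.8%. Members with more unique sequence had higher levels per kb, with a Spearman correlation of 0.38 in MEFs, 0.36 in lymphoma lines and 0.52 in preB-ALL. In the deposited table, 131 rows are such copies of 50 members. A copy row stood above its own member in 27 members in MEFs, in 27 in lymphoma lines and in 16 in preB-ALL. Levels and differences given for a member are those of the reads assigned to its own row.

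Sequences of 2 such pairs show how little separates a member from its copy. Each line gives 100 coding bases of GENCODE (GRCm38), with the only base that differs over the whole coding sequence in capitals and bases numbered from 1 at the A of the start codon. Rpl28, a large subunit protein, and the row Gm10051 are 99.8% identical over 414 bases, the difference being A274T (the member's base first).
Rpl28 (gene at chr7:4792965-4794547, coding bases 224 to 323): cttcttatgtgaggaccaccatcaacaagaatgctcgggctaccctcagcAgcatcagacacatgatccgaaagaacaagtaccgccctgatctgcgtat
Gm10051 (chr5:133475081-133475576, the same bases): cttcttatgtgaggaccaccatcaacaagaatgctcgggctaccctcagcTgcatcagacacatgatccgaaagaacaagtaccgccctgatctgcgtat
Rpl23, which lies at the interface of the subunits and is known to bind MDM2, and the row Gm9794 are 99.8% identical over 423 bases, the difference being C253T.
Rpl23 (gene at chr11:97777526-97782439, coding bases 203 to 302): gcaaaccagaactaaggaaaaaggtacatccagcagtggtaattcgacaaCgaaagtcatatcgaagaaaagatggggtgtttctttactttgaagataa
Gm9794 (chr6:66875262-66875764, the same bases): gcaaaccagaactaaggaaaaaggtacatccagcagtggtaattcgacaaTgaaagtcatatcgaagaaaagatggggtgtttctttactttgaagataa
In MEFs without WT 2, Gm10051 was at a mean of 486 CPM and Rpl28 at 16.0 CPM, and Gm9794 was at 675 CPM and Rpl23 at 46.7 CPM. In lymphoma lines the pairs were at 1118 and 35.3 CPM and at 1171 and 68.5 CPM. Both copies were thus above the gene itself in each of these groups.

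The lymphoma lines were compared with the sgBcl-2 MEFs, which share the cassette and the targeted gene but are another cell type, to see which RP genes differ between B lymphoma cells that express a Myc transgene and fibroblasts. In these lymphoma lines Myc was at 1148 to 2602 CPM, compared with 59.3 to 80.6 CPM in the sgBcl-2 MEFs. Nearly all RP genes were higher in the lymphoma lines. Of the 79 members tested, 74 were higher and 1 was lower in limma on log2(CPM + 0.1) with TMM scaling at an adjusted p under 0.05, while 36.3% of all 14620 tested genes were higher and 45.0% were lower. The median log2 fold change of the tested members was 0.92, compared with -0.27 over all tested genes. The 4 sgBcl-2 libraries entered as 4 samples although they came from 2 MEF lines. With these libraries summed per line, 71 of 80 tested members were higher and 1 was lower (median 0.87), beside 4577 higher and 6200 lower of all 15234 genes, and Rpl41 and Rps27 were no longer called (adjusted p = 0.13 and 0.068 in limma). With the mitochondrial genes left out, 74 members were higher and 1 lower, with a median of 0.94. The large subunit (45 of 48 higher, median 0.92) and the small subunit (29 of 31 higher, median 0.95) had similar medians. The 2 members that did not pass the filter on low counts were Rpl10l, at 0 reads in all 20 libraries (at most 0.24 CPM at the limit of 3 reads in the shallowest library), and Rpl3l.

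Several small subunit genes were among those that differed most. Rps29 (chr12:69157722-69159186), a zinc-binding protein mutated in some families with Diamond-Blackfan anaemia, was at 9.07, 8.96, 8.52 and 7.42 CPM in the 4 sgBcl-2 MEF libraries and at 25.2 to 36.0 CPM (median 28.3) in the lymphoma lines. The groups did not overlap, and the log2 fold change was 1.61 ± 0.14 (SE; adjusted p = 1e-06). Rps27a (chr11:29545842-29548040), which is made as a fusion with ubiquitin, was at 14.2, 14.5, 14.6 and 12.7 CPM and at 40.9 to 59.4 CPM (median 46.5). Its log2 fold change was 1.58 ± 0.12, again without overlap. Rps7 (chr12:28630847-28635953), a small subunit protein known to bind MDM2, was at 28.6, 28.9, 24.5 and 23.3 CPM and at 72.5 to 100.2 CPM (median 89.4), a log2 fold change of 1.54 ± 0.11. Rps13 (1.37 ± 0.18) and Rps12 (1.36 ± 0.15), the latter a protein of the beak of the small subunit, followed.

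Rpl8 (chr15:76904071-76906318), which lies close to the peptidyl transferase centre of the large subunit, was the large subunit gene with the largest rise. It was at 794, 802, 727 and 763 CPM in the sgBcl-2 MEFs and at 1667 to 2843 CPM (median 2419) in the lymphoma lines. The lowest lymphoma line was well above the highest MEF library, and the log2 fold change was 1.44 ± 0.16 (adjusted p = 9.6e-06). Almost all (94.6%) of the 75-base windows of Rpl8 are unique, and no copy of it was found in GENCODE. The same was found for Rps3, a protein of the mRNA entry channel that also has a role in DNA repair, with 100% unique windows. Rps3 was at 1026, 1016, 947 and 968 CPM in MEFs and at 1749 to 2458 CPM in lymphoma lines, a log2 fold change of 0.90 ± 0.13.

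The called members that rose least were Rpl23 (log2 fold change 0.37 ± 0.07), Rpl41 (0.43 ± 0.14), Rps28 (0.46 ± 0.12), Rpl27a (0.47 ± 0.08), Rps27 (0.51 ± 0.14) and Rpl15 (0.53 ± 0.10). Rpl41, which encodes the shortest RP, was at 540, 565, 529 and 537 CPM in the sgBcl-2 MEFs and at 657 to 1112 CPM (median 834) in lymphoma lines. Even here no lymphoma line reached down to the MEFs. With RLE in place of TMM scaling, the calls of Rpl41 (0.24), Rps28 (0.27) and Rps27 (0.32) were lost. Under that scaling the median of all tested genes was -0.46 and that of the members 0.73, compared with -0.27 and 0.92 under TMM.

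**Figure D2:**
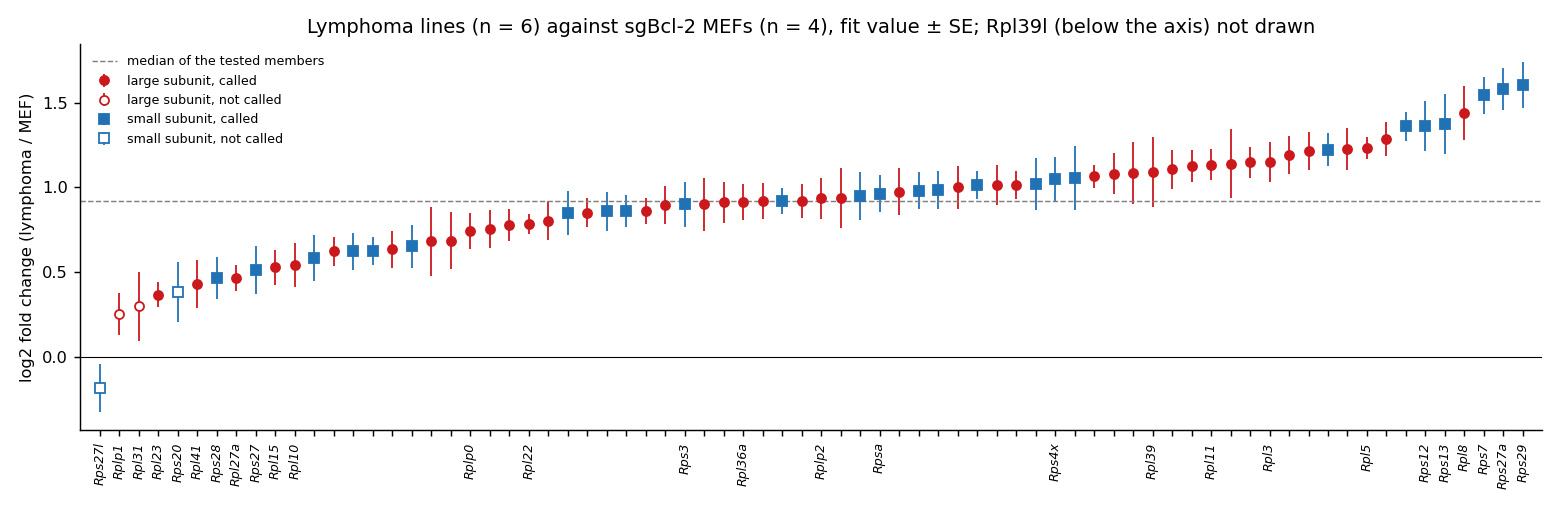
Log2 fold change of RP genes between the 6 lymphoma lines and the 4 sgBcl-2 MEF libraries, with the SE of the limma fit; red circles are large and blue squares small subunit genes, and open symbols did not pass the test. The genes lie between -0.18 (Rps27l) and 1.61 (Rps29) around the dashed median of 0.92, and Rpl39l, far below the axis, is not drawn. Genes described in the text are labelled.

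Only 4 tested members, Rps27l, Rplp1, Rpl31 and Rps20, were not called in either direction. Rplp1, with Rplp0 and Rplp2 a protein of the stalk that recruits elongation factors, was at 1510, 1480, 1362 and 1370 CPM in the sgBcl-2 MEFs and at 1652 to 2357 CPM in lymphoma lines (log2 fold change 0.26 ± 0.12, adjusted p = 0.077). Of its partners, Rplp0 rose by 0.74 ± 0.11 and Rplp2 by 0.94 ± 0.12. Rpsa, whose protein is also known as a laminin receptor and which is mutated in congenital asplenia, rose by 0.96 ± 0.11, from 562, 556, 513 and 535 CPM to 989 to 1325 CPM. Among genes with a second copy or a known tie to p53, Rpl5 (98.2, 100.5, 98.3 and 99.9 CPM in MEFs and 234 to 308 CPM in lymphoma lines) rose by 1.23 ± 0.07 and Rpl11 by 1.13 ± 0.09, while Rpl3 rose by 1.15 ± 0.12, Rpl36a by 0.92 ± 0.11, Rpl22 by 0.79 ± 0.06 and Rpl10 by 0.54 ± 0.13. In Rpl10, with 166 to 175 CPM in MEFs and 210 to 323 CPM in lymphoma lines, the groups did not overlap either. The difference for Rpl31 was 0.30 ± 0.20 and that for Rps20 0.39 ± 0.18.

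Rps27l and its close relative Rps27 are given side by side. Rps27l (chr9:66944624-66949522; 76.1% identical to Rps27 over the coding sequence) was at 174.3, 179.4, 160.8 and 141.4 CPM in the sgBcl-2 MEFs and at 129 to 196 CPM (median 171) in the lymphoma lines, and the groups overlapped. Its log2 fold change was -0.18 ± 0.14 (95% interval -0.50 to 0.13, adjusted p = 0.25), and it was called lower with RLE scaling (-0.38) and in DESeq2 (-0.36). The tumours had 115 and 109 CPM, the lowest values of all groups, and the preB-ALL libraries 151 and 136 CPM. Rps27 rose by 0.51 ± 0.14.

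Rpl39l was the single member called lower. It had 836 reads in the 4 sgBcl-2 MEF libraries (9.12, 9.68, 7.23 and 8.10 CPM) and 1 read in the 6 lymphoma lines together, a ratio of 1253 with an exact 95% counting interval of 224 to 49560. The tumours held 0 and 2 reads and the preB-ALL libraries none. Within MEFs it varied between libraries, with 1.25 and 2.28 CPM without an sgRNA, 9.16 and 4.84 CPM with sgNT, and 18.2 and 4.45 CPM in the WT libraries. Rpl39, its X-linked partner, rose like most members, from 0.734, 0.678, 0.566 and 0.429 CPM to 1.18 to 1.86 CPM (log2 fold change 1.09 ± 0.21). Rpl39 had only 10 to 18 reads per sgBcl-2 MEF library and 29 to 49 per lymphoma line, and has 18 copies in GENCODE. The 2 coding sequences are printed because their differences are spread over the whole length, with the 23 of 156 bases that differ in capitals (85.3% identity).
Rpl39 (gene at chrX:37082518-37085222): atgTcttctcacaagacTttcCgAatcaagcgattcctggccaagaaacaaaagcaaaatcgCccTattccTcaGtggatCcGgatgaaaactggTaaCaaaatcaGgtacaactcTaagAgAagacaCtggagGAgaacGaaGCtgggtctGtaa
Rpl39l (gene at chr16:10170197-10174911): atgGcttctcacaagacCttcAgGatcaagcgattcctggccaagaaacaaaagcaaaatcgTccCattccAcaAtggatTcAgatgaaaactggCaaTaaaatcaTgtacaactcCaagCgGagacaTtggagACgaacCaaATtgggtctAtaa
All 75-base windows of Rpl39l are unique. Rpl3l, 73.3% identical to Rpl3, was at 0.12 to 2.89 CPM in the lymphoma lines, where 2 of the 6 lines (62 and 58 reads) stood above the rest (3 to 6 reads). In MEFs it had at most 4 reads, and the preB-ALL libraries had 14 and 297. Rps4l, which is not protein coding and no member, was found at 36.0 to 74.6 CPM in MEFs and at most 0.30 CPM in the other libraries, while Rps4x, the X-linked gene for the protein, rose by 1.05 ± 0.13 in the lymphoma lines.

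Genes with related roles were counted in the same fit. All 7 RP genes that the naming rule leaves out, among them Rps3a1, Fau, Rack1, Rpl36al, Rpl22l1 and Rpl7l1, were higher in lymphoma lines, with a median of 0.69. Among 15 translation factors and other genes with TOP mRNAs, 12 were higher and 2 lower (median 0.66). The 2 that fell were Tpt1 (-0.31 ± 0.11) and Vim (-5.20 ± 0.26), which encodes an intermediate filament of mesenchymal cells. The nucleolar chaperone Npm1 rose most (2.14 ± 0.12). Of 9 chaperones and escort factors of RPs, 8 were higher and Aamp was lower (median 1.19), led by Rrs1 (2.10 ± 0.17), which brings the Rpl5 and Rpl11 complex to the ribosome, and Grwd1 (1.87 ± 0.11). Mitochondrial RP genes, which are encoded in the nucleus but serve another ribosome, had 64 of 77 higher, 3 lower and a median of 0.93.

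**Figure D3:**
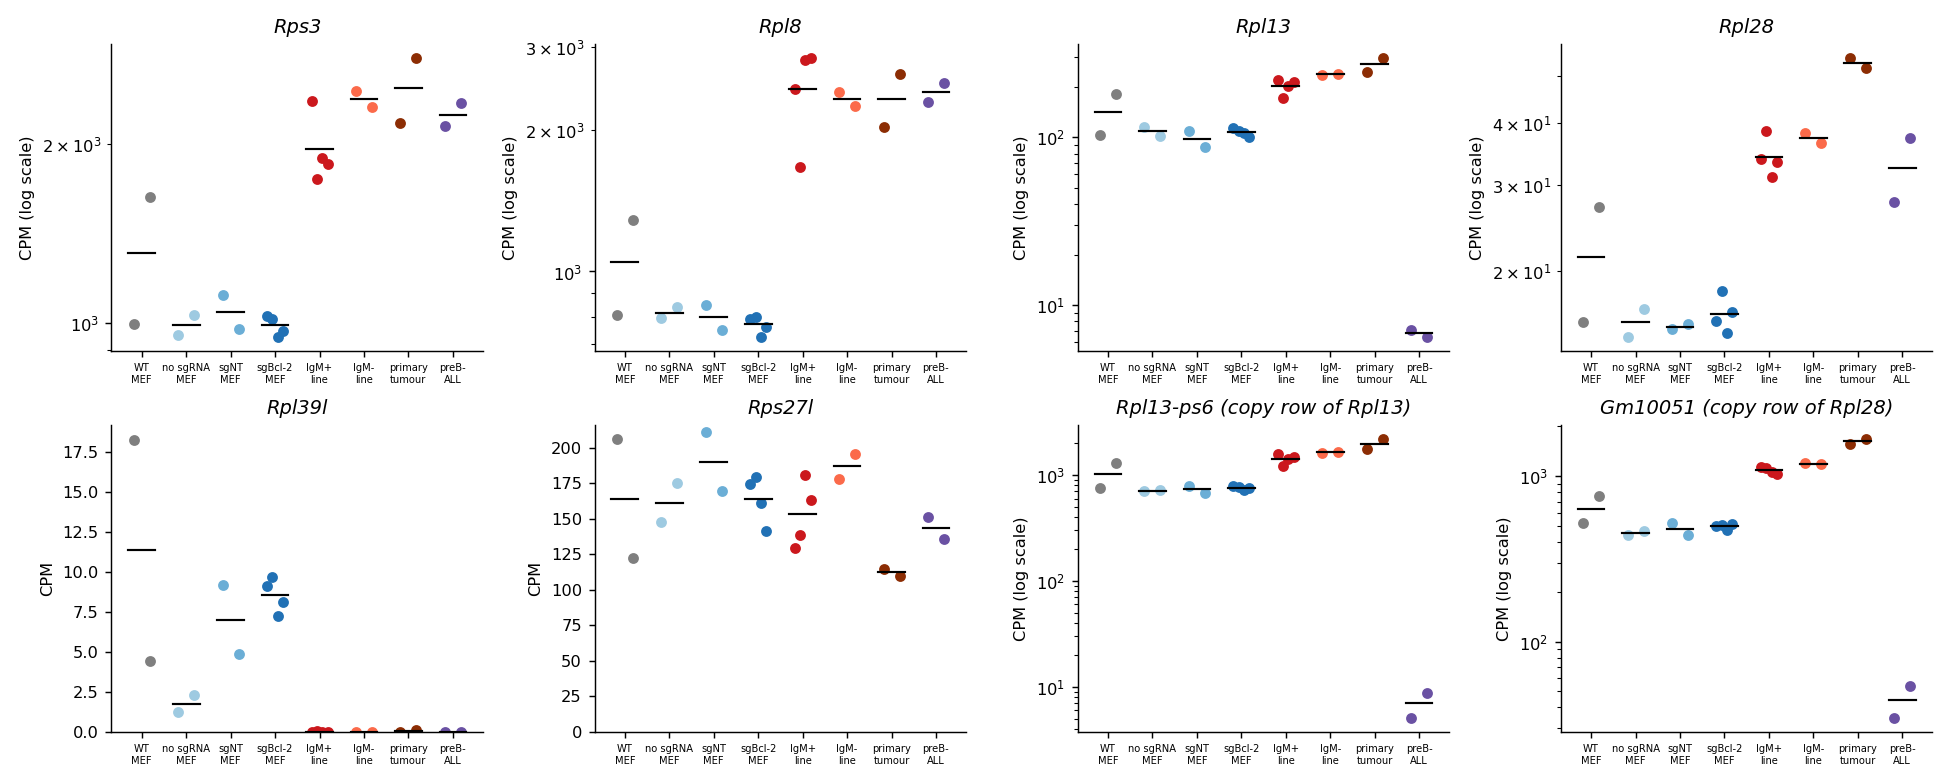
CPM of 6 RP genes and of 2 copy rows in each of the 20 libraries, with a line at each group mean; the vertical axes of all panels but Rpl39l and Rps27l are logarithmic. Rps3 and Rpl8, which have few or no copies, are at similar levels in lymphoma lines and preB-ALL, while Rpl13 and both copy rows fall to 5.1 to 54.1 CPM in preB-ALL only.

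The study compared its lymphomas with preB-ALL to see how they differ from another B cell tumour. Here the members did not move together. Of 79 tested members, 38 were higher and 8 lower in the 6 lymphoma lines than in the 2 preB-ALL libraries, beside 20.9% higher and 22.5% lower among all 13961 tested genes. The median was 0.50, against -0.07 over all genes. The SD of the log2 fold changes across members was 1.24 here. Without scaling factors 28 members were higher and 15 lower, and the median fell to 0.14, beside 1691 higher and 4400 lower among all genes (median -0.42). The count of higher members was 24 without preB-ALL 1, beside 2523 of 14394 genes, and 36 without preB-ALL 2, beside 1343 of 14333 genes. Each of these fits has 1 preB-ALL library, which is assumed to vary like the lymphoma lines. All preB-ALL libraries differ from the lymphoma lines in sequencing run, RNA kit and culture with IL7, and only their columns name an aligner. Their summed fibroblast markers were at 2716 and 6381 CPM, against at most 87.9 CPM in the lymphoma lines. The B cell markers were at 4116 and 7341 CPM against 1292 to 2339 CPM. These differences and the tumour type cannot be told apart.

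Rpl13 (chr8:123102350-123105244), a large subunit protein, was at 7.15 and 6.49 CPM in preB-ALL and at 170 to 238 CPM (median 217) in the lymphoma lines. The values of the 10 MEF libraries, 87.7 to 181 CPM, were also far above those of preB-ALL. The log2 fold change between lymphoma lines and preB-ALL was 5.30 ± 0.18 (adjusted p = 3.2e-07), and 0% of the coding windows of Rpl13 are unique. Its copy row Rpl13-ps6 was likewise low in preB-ALL, with 5.08 and 8.82 CPM, compared with 1222 to 1655 CPM in the lymphoma lines and a mean of 743 CPM in MEFs. With its copy rows added, the log2 fold change of Rpl13 was 6.96.

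Rps16 (chr7:28350689-28352698), a small subunit protein whose tail contacts the tRNA in the P site, was at 26.6 and 35.8 CPM in preB-ALL and at 285 to 334 CPM in lymphoma lines (3.68 ± 0.14). Rpl5 and Rpl11, which together with 5S rRNA form the particle that can inhibit MDM2, were at 32.1 and 44.6 CPM and at 32.8 and 40.4 CPM in preB-ALL. In lymphoma lines Rpl5 was at 234 to 308 CPM (3.16 ± 0.14) and Rpl11 at 162 to 207 CPM (2.72 ± 0.15). Rpl10, a late joining large subunit protein next to the peptidyl transferase centre, was at 43.8 and 58.1 CPM and at 210 to 323 CPM (2.85 ± 0.20). For Rps10 the values were 59.8 and 131 CPM against 297 to 424 CPM (2.42 ± 0.28). None of the groups overlapped in these genes, and all 6 leading genes but Rps10 (9.91%) have 0% unique windows. Among the smallest called rises were those of Rpl22 (0.47), Rpl28 (0.49), Rps25 (0.53), Rpl14 (0.66) and Rplp2 (0.77). All of these lost their call without scaling factors.

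The 8 members that were lower in lymphoma lines included Rpl23 (-1.73 ± 0.14), Rpl32l (-1.32 ± 0.17), Rpl26 (-1.27 ± 0.18), Rps24 (-1.16 ± 0.25), Rps7 (-0.997 ± 0.17), Rps19 (-0.85 ± 0.18) and Rpl34 (-0.65 ± 0.15). Rps19 and Rps24 are genes of Diamond-Blackfan anaemia, of which Rps19 is the one most often mutated. Rpl23 was at 243 and 350 CPM in preB-ALL and at 64.3 to 73.2 CPM in lymphoma lines. Rps7 was at 250 and 198 CPM and at 72.5 to 100.2 CPM. In both genes the preB-ALL values were also above those of every MEF library, the highest of which were 55.9 and 43.4 CPM.

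The counts were recomputed with copy rows included, since the ratio of copy-row reads to member reads was 0.573 to 0.625 in the 18 MEF, lymphoma and tumour libraries and 0.315 and 0.318 in preB-ALL. When the reads of the copy rows were added to their members, an alternative chosen after seeing the data, 1 member remained lower, Rpl32l, a single-exon gene without a copy row, and 47 were higher. Rps7 turned from -0.997 to 1.67 and Rpl34 from -0.65 to 1.03, both called higher. Rpl23 (-0.39, adjusted p = 0.14), Rpl26 (-0.04), Rps24 (-0.46) and Rps19 (-0.17) lost their call. Of all tested members 16 shifted by over 1 on the log2 scale and the SD across members rose from 1.24 to 1.52. Between lymphoma lines and sgBcl-2 MEFs, the same addition shifted 0 members by over 1 and left the SD at 0.88 (0.89 without it). That SD includes Rpl39l (-6.46), which has no copy row. Among the 50 members with copy rows the SD before the addition was 0.31 there and 1.35 against preB-ALL.

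Copy rows differed among themselves. Gm5879, a copy of Rpl3, had 852 to 1257 CPM in lymphoma lines, whereas the preB-ALL libraries had 21.2 and 14.9 CPM, while Rpl3 itself was at 524 to 759 CPM and at 372 and 299 CPM. Gm10051 was at 34.6 and 54.1 CPM in preB-ALL against 1034 to 1205 CPM, while Rpl28 had 27.7 and 37.3 CPM against 31.1 to 38.6 CPM, values that overlap before scaling (log2 fold change 0.49 with TMM scaling, 0.13 without). Gm9794, in contrast, was at 1652 and 1952 CPM in preB-ALL. Whether the alignment or the counting of the preB-ALL libraries bears on these values was not tested.

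Calls were also counted by uniqueness. In strata of uniqueness set after seeing the data, the 35 members under 10% had 23 higher and 2 lower calls (median 1.21, SD 1.37), the 26 between 10% and 50% had 9 higher and 5 lower calls (median 0.17), and of the 18 tested members at 50% or more 6 were higher and 1 was lower (median 0.30, SD 0.97). Rpl8 was at 2293 and 2514 CPM in preB-ALL (log2 fold change 0.34, 95% interval -0.30 to 0.99) and Rps3 at 2144 and 2346 CPM (0.26, interval -0.31 to 0.82). The groups overlapped in both genes. In the comparison with sgBcl-2 MEFs the 3 strata had medians of 0.92, 0.93 and 0.88.

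**Figure D4:**
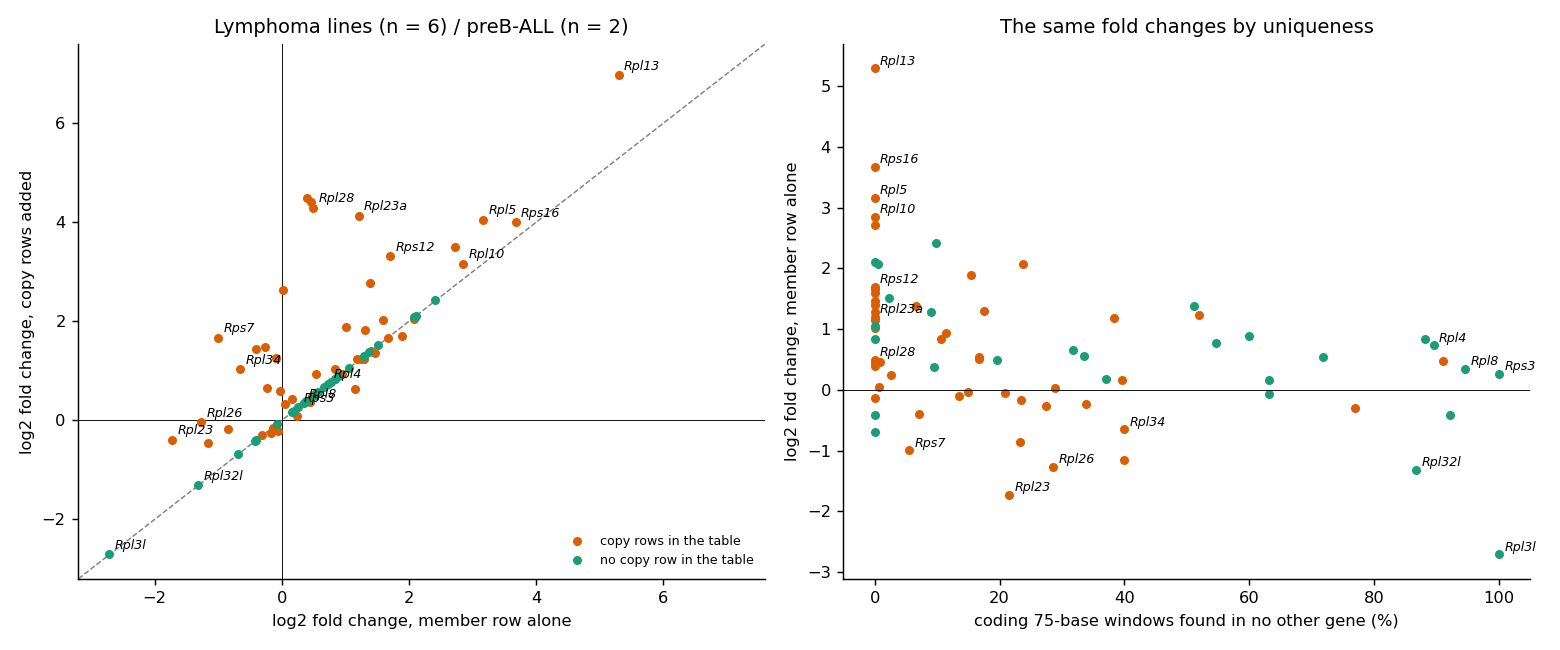
Left, log2 fold change between lymphoma lines and preB-ALL for RP genes with their own row alone (horizontal) and with their copy rows added (vertical); points on the dashed line did not change. Right, the same fold changes of the genes alone against the share of coding 75-base windows found in no other gene. Genes without copy rows (green) stay on the line, while Rps7 and Rpl34 cross 0 and Rpl13 moves from 5.30 to 6.96.

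Other gene groups gave these counts against preB-ALL. Of the 7 RP genes outside the naming rule 4 were higher and 1, Rpl22l1 (-1.34 ± 0.23), was lower in lymphoma lines. Rpl22l1 is the partner of Rpl22, which went the other way. TOP factors had 8 of 15 higher and Vim lower, RP chaperones 4 of 9 higher, and mitochondrial RP genes 36 of 77 higher and 3 lower (median 0.42). Of 29 tested RP pseudogene rows 24 were higher and 3 lower, with a median of 3.02, compared with 25 of 28 higher and a median of 0.74 against sgBcl-2 MEFs.

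Surface IgM appears as B cells mature past the pre-B stage. In all, 0 of 79 RP genes were called higher or lower between them in limma, edgeR, DESeq2 or limma-voom. At an unadjusted p under 0.05 the count was 0 in limma and 5 in DESeq2. Among all 12386 tested genes, 0.0484% were higher and 0.549% lower in the IgM negative lines by limma, while DESeq2 called 172 higher and 577 lower. The median log2 fold change of the members was 0.19 (all genes -0.02), and 68 of 79 were positive. Without IgM negative line 1 the median was 0.10 with 59 positive, without IgM negative line 2 it was 0.30, and without IgM positive line 2 it was 0.11. Rpl3l had the largest difference in size, with 0.234 and 0.259 CPM in the negative lines against 0.122, 0.150, 2.35 and 2.89 CPM (log2 fold change -1.17 ± 1.31, adjusted p = 0.77). Rpl37a had the largest positive one, at 203 and 117 CPM in the IgM negative lines and at 134, 101, 109 and 98.3 CPM in the positive ones (0.55 ± 0.26, adjusted p = 0.50). Only 1 of the 2 negative lines was high.

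The primary tumours were compared with the 2 lines whose mouse numbers they carry. None of 78 tested RP genes passed the test in either direction in limma (7 at an unadjusted p under 0.05) or edgeR, beside 0.267% of all 12719 tested genes higher and 0.0629% lower. DESeq2 called 1 member, beside 1039 of all genes higher and 1061 lower, and a fit with all 4 IgM positive lines called 5, Rpl9, Rpl12, Rpl21 and Rpl28 among them, all higher in tumours, beside 781 of all 12983 genes. The median was 0.33 (all genes 0.01), and 75 of 78 were positive. Without IgM positive line 2 the median was 0.13, and without tumour 2 it was 0.20, with 59 positive in each case, whereas without IgM positive line 1 it was 0.48. Rpl12, a protein of the base of the stalk, was at 133 and 151 CPM in tumours and at 98.2 and 83.7 CPM in their lines (0.59 ± 0.19, adjusted p = 0.15). The titles and descriptions give the tumours opposite mouse numbers. With a block by the mouse in the titles 10 members were called higher, and with the mouse in the descriptions 0, while among all 12719 genes the first block called 1689 higher and the second 0. The tumours also held 33.2 and 42.7 CPM of summed myeloid markers (2.62 to 15.7 CPM in the lymphoma lines) and more B cell marker RNA (5327 and 5396 CPM), and the part of these cells in the result was not tested.

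Among MEFs, the study asked whether the CRISPRa cassette with a control sgRNA changes expression. Between sgNT and WT, 0 of 79 RP genes were called by limma, edgeR, DESeq2 or limma-voom. Of all 14560 tested genes limma called 0%, while DESeq2 called 59 higher and 29 lower. In limma 0 members had an unadjusted p under 0.05. The median of the members was -0.21 (all genes 0.02). Between MEFs without an sgRNA and WT the counts of members were likewise 0 by all 4 tools. Limma called 0% of 14546 genes, and DESeq2 called 110 higher and 78 lower. In limma 1 member had an unadjusted p under 0.05, and the members' median was -0.34. In WT 2, 76 of the 81 members were above WT 1, and the median log2 ratio of the members was 0.62. Of 13659 genes at 1 CPM or more, 8131 were likewise higher in WT 2, with a median of 0.22. Rpl12 was at 302 CPM in WT 2 and 37.0 CPM in WT 1, and Rps12 at 85.6 and 34.5 CPM, whereas Rps20, Rpl31, Rps27l and Rpl39l were lower in WT 2. Without WT 2, the medians were -0.02 and -0.14, and the lower calls numbered 1 (Rpl39l) and 8, beside 686 and 2221 of all genes. Without WT 1 they numbered 34 and 38, with medians of -0.35 and -0.51, beside 4179 lower genes in each comparison and 4245 and 4402 higher ones. With a single WT library left, the spread comes from the other group alone and that library is assumed to vary alike, so these counts compare 1 library with a group.

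The last 2 comparisons were within dCas9-SAM MEFs. With sgNT 12 of 79 RP genes were higher than without an sgRNA and 0 were lower in limma. Among all 14655 genes 20.3% were higher and 20.9% lower. The members' median in limma was 0.10, with 19 members at an unadjusted p under 0.05. In edgeR, DESeq2 and limma-voom 0 members were lower as well. In a fit of all libraries 0 members were called higher, with 8 at an unadjusted p under 0.05, beside 203 of 16483 genes. The largest were Rpl39l (1.90 ± 0.35), Rps28 (0.84 ± 0.18; 23.2 and 28.6 CPM against 11.9 and 17.0 CPM) and Rpl23a (0.67 ± 0.13; 19.2 and 16.8 CPM against 10.3 and 12.1 CPM). Among the smallest called were Rpl27a (0.40 ± 0.09) and Rps19 (0.34 ± 0.09). Leaving out single libraries gave between 5 (without sgNT 1) and 23 (without the no sgRNA library 2) calls, 6 without the no sgRNA library 1. Among all genes the higher calls in these fits numbered 2220 of 14975, 2075 of 15053 and 2166 of 15090. In these fits the lone library of a group is assumed to vary like the other group. In limma on the 4 libraries without a block, the share of called members lay under that of all genes in both directions. For higher members this did not hold without the no sgRNA library 2.

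Few RP genes passed the test when Bcl-2 was raised. Between sgBcl-2 and sgNT MEFs, 0 of 79 members were higher and 2 lower in limma, beside 6.61% higher and 4.24% lower among all 14676 genes, with a median of -0.01 (all genes -0.01) and 10 members at an unadjusted p under 0.05. One of them was Rps21 (145, 158, 142 and 140 CPM with sgBcl-2 against 196 and 184 CPM; -0.29 ± 0.07, adjusted p = 0.030). Rps21 had been higher in sgNT than without an sgRNA, and these comparisons share the sgNT libraries. Without sgBcl-2 library 1 or either sgNT library it was not called. Higher calls were 0 in edgeR, DESeq2 and limma-voom as well, and with the MEF line as a block 1 was called, Rpl13 (0.23, adjusted p = 0.044), while both lower calls stayed.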

How the data were processed

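RNA of 20 libraries was sequenced by the authors, who aligned reads to GRCm38 (mm10) with Rsubread and deposited CPM values for 25869 Entrez genes. Whether counting used strand was not given in the sources used here. Symbols came from RefSeq for 25242 identifiers and from GENCODE for 14, and 613 had none. All deposited CPM values were whole multiples of 1 read (tolerance 0.01), so reads per library were recovered (12474885 to 26678417) and used for the filter and the count tests.

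Groups were compared 2 at a time with limma (3.58.1, R 4.3.3; trended empirical Bayes, two-sided) on log2(TMM-scaled CPM + 0.1), after filterByExpr of edgeR (4.0.16), with Benjamini-Hochberg adjustment over all tested genes and a threshold of 0.05. Fold changes are on the log2(CPM + 0.1) scale, which understates those of low genes. edgeR's quasi-likelihood test, DESeq2 (1.42.0), limma-voom, other scalings, filters, pseudocounts, thresholds and left-out libraries were alternatives. The fits were tested on simulated data.

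Some named genes are not reported here, nor drawn in figures of single genes. Members, gene lists and markers were chosen with earlier results of these data known. Copies were found with BLAST+ (2.17.0) in GENCODE transcripts. Adding copy rows, uniqueness and its strata were chosen after seeing the data. Named were the 6 largest and 6 smallest called changes in each direction in the comparisons of lymphoma lines with MEFs and preB-ALL, the 3 largest and 3 smallest elsewhere, stalk genes, Rpsa, paralogue pairs, Rpl5, Rpl11 and members at 0. Others named, such as Rps3, Rpl37a and Rpl12, were picked after their values were seen. MEF lines are not stated to be separate cultures at each replicate, so p-values measure the spread between these samples. The titles tie dCas9-SAM libraries of 1 number to the same MEF line, and the pairwise correlations of their line differences over 13226 genes were -0.09 (no sgRNA with sgNT), -0.19 (no sgRNA with sgBcl-2) and 0.46 (sgNT with sgBcl-2).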

Additional observations from a re-analysis of the deposited data

Results flagged for a closer look

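Among 80 tests for a single library far from its group, 3 values of RP genes passed Dixon's 95% limit for groups of 4 libraries, and chance passes about 1 in 20 such tests. Rpl32l was highest in sgBcl-2 library 1, at 19.5 CPM, with the others at 16.7 to 16.8 CPM. Rpl36a was lowest in IgM positive line 4, at 24.4 CPM, the next being 26.7 CPM. Rps21 was lowest in the same line, at 269.976 CPM, the next being 298 CPM. Not among the 3 was Rps20, at 581 CPM in sgBcl-2 library 4 and 622 to 623 CPM in the others. Nor was Rps6, at 381 CPM in IgM positive line 1 and 267 to 276 CPM in the others.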

How the results depend on the processing

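Of 913 values of named members under alternatives, 829 kept their direction and their side of the threshold, 81 lost their call and 3 reversed. The reversed ones, all against preB-ALL, were Rps7 (1.67 with copy rows added) and Rpl34 (0.99 with pseudogene rows and 1.03 with copy rows added). Against sgBcl-2 MEFs, lower members numbered 2 with DESeq2 and with RLE scaling. Against preB-ALL, lower members numbered 13 with DESeq2, 15 without scaling and 1 with copy rows added, and leaving out single libraries gave 24 to 41 higher and 7 to 12 lower. Higher members in tumours numbered 1 with DESeq2 (1039 of all 12719 genes), 12 of 80 in a fit of all libraries (1992 of 16483 genes), 10 with a replicate block by the titles, 0 with one by the descriptions and 5 against all 4 IgM positive lines. For no sgRNA against WT, 1 was lower in a fit of all libraries. For sgNT against no sgRNA, 0 were higher in a fit of all libraries, 5 at a threshold of 0.01 and 15 with the replicate block. Limma without a block called 20.3% of all 14655 genes higher there. All-gene counts at 0.01 and with the block are not given, so the 5 and 15 do not set RP genes apart. Between sgBcl-2 and sgNT, limma without a block called 6.61% of all 14676 genes higher and 4.24% lower. For members, the replicate block gave 1 higher and 2 lower. Lower members numbered 1 with edgeR, 5 without scaling and 1 without the filter. They numbered 0 in a fit of all libraries, 0 at 0.01 and 1 with copy rows added. The cause of these changes was not tested. Some counts of members, here and above, stand without the count over all genes in the same fit. Calls among all genes differed between fits as well, so such counts alone do not set RP genes apart. Leaving out single libraries gave 0 to 1 higher and 0 to 34 lower for sgNT against WT, 0 to 2 and 0 to 38 for no sgRNA against WT, 5 to 23 higher for sgNT against no sgRNA, and 0 to 2 lower for sgBcl-2 against sgNT. WT lines share only a number with the others (correlations 0.04, 0.09 and 0.22), and the replicate block gave 0 calls in both WT comparisons. No paired analysis was possible because lymphoma lines, MEFs and preB-ALL share no source.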
